A study of Mus musculus with 6 samples.

Results

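The E2F transcription factors and the retinoblastoma proteins that hold them in check were examined by RNA sequencing in mouse cells labelled as microglia, which are macrophages of the brain. Members were chosen by gene symbol as E2f1, E2f2, E2f3, E2f4, E2f5, E2f7, E2f8, Rb1, Rbl1 and Rbl2, which are 10 of the 26096 genes in the deposited table. The cells were wild type in all 6 samples. In 3 samples they had received medium from normal bone marrow-derived macrophages (C CM, the control), and in 3 samples medium from macrophages undergoing ferroptosis (FeM CM), a cell death driven by iron and lipid peroxides. Neither the agent that induced ferroptosis, nor the duration, nor the origin of the microglia is stated in the labels. For the macrophages no origin beyond bone marrow is given there. The labels do not say whether the replicates were separate cultures. The p-values therefore speak of the spread among these samples only, and that spread may be technical.

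E2F factors bind promoters of genes needed for DNA replication and division. E2F1, E2F2 and E2F3 are known mainly as activators, E2F4 and E2F5 as repressors that act with pocket proteins, and E2F7 and E2F8 as atypical repressors that bind DNA without a DP partner. The pocket proteins RB (gene Rb1), p107 (Rbl1) and p130 (Rbl2) bind E2Fs in resting cells and release them when cyclin-dependent kinases phosphorylate them. Several E2F and pocket protein genes are themselves E2F targets, and microglia are known to divide readily when stimulated.

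Reads per library, worked out from the deposited values, ran from 39624311 to 50557794, and each member rested on 331 to 6954 reads in a library. The 10 genes of a macrophage marker list, with Lyz2 highest, summed to 448958 to 465655 normalized counts (reads divided by a library size factor) in controls and 486091 to 497366 with ferroptotic medium. Its members went different ways: the means of Lyz2 (207348 and 229156) and Cd14 (84976 and 117404) were higher with ferroptotic medium, and those of Csf1r (76237 and 58594), Cd68 (37444 and 30783) and Aif1 (203 and 159) were lower. The microglial markers P2ry12, Tmem119, Fcrls, Gpr34 and Olfml3 were under 50 normalized counts in every library, and the 7 measured genes of that list summed to 3244 to 3663 and 2949.9 to 3129.9. So the labelled cells carried macrophage genes at high levels and these 5 microglial genes at low ones. Among other cell types, summed levels of neuronal genes (2 of 6 in the table, Map2 and Tubb3) were 5.88 to 16.6 in controls and 55.3 to 69.6 with ferroptotic medium. Tubb3 alone was higher there (means 4.99 and 61.3), while Map2 was lower (5.598 and 1.02). Astrocyte genes (5 of 6, Gja1 highest) summed to 880.1 to 977 and 1152 to 1218, and fibroblast and endothelial genes (4 of 6, Pecam1 highest) to 206 to 230.4 and 330.5 to 359.95. Oligodendrocyte genes (4 of 6, Mbp highest) summed to 6824 to 7335 and 4277 to 4487. Members of these lists also went different ways. Of the astrocyte genes, Gja1 was higher with ferroptotic medium (means 769 and 1084) and Aldh1l1 lower (124 and 79.9). Of the oligodendrocyte genes, Mbp (6608 and 4101) and Cldn11 (283 and 120) were lower and Mag (68.9 and 141) higher. Slc1a3, Slc1a2, Gfap, Map2, Col1a1 and Col1a2 stayed under 50. These levels differed between the media, as the members did, and their part in the results below was not tested.

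With ferroptotic medium 8 of the 10 members fell and 0 rose, beside 22.8% of 15597 tested genes that passed in the lower direction, 19.7% in the higher and 42.5% in either. All 10 were tested, with the call set at a limma adjusted p below 0.05 (Benjamini-Hochberg over all tested genes). The members were chosen with earlier results of these data known, so their counts and median are not independent evidence of a direction. The atypical repressors E2f8 and E2f7 and the pocket protein gene Rbl1 fell at least 2-fold, as did 3.7% of tested genes, and no member rose that far, as 3.95% did. E2f1 and E2f2 fell to between 60.9% and 67.2% of the control mean, and E2f4, E2f5 and Rbl2 fell by less. E2f3 and Rb1 did not pass. The median log2 difference of the members was -0.46, beside -0.005 over all tested genes. Groups of libraries did not overlap for 8 members, all of them lower with ferroptotic medium, and 28.2% of tested genes had non-overlapping groups in that direction and 25.6% in the other. In bulk RNA, fewer cycling cells and less of these RNAs per cell cannot be told apart.

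**Figure D1:**
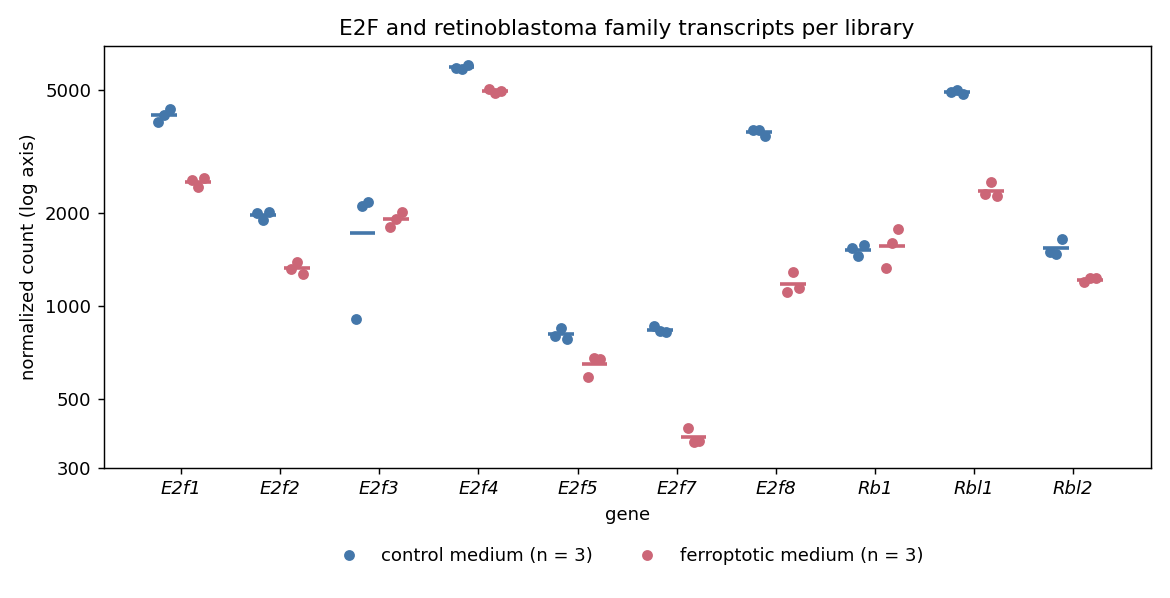
Normalized counts (log axis) of the 10 family members in each library, with points for libraries (control medium left, ferroptotic medium right, n = 3 each) and horizontal lines for group means. The groups separate for 8 members, and E2f3 in control replicate 1 (906) lies apart from the other controls.

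Promoter sequences are shown because several members are regarded as targets of their own family. Of the 10 members, 7 had a window in the RefSeq promoter table (GRCm38.p6), each running from 250 bases before to 50 bases after an annotated gene start. Each was searched on both strands for the E2F consensus (TTTCCCGC, TTTCGCGC, TTTGCCGC or TTTGGCGC) and for the core GGCGGGAA, which overlaps the reverse complement of TTTCCCGC. The 4 windows with a match, and that of E2f8, the member with the lowest log2 difference, are printed 5′ to 3′ along the gene, with E2F matches in capitals.
E2f2 chr4:136172024-136172323 (+ strand): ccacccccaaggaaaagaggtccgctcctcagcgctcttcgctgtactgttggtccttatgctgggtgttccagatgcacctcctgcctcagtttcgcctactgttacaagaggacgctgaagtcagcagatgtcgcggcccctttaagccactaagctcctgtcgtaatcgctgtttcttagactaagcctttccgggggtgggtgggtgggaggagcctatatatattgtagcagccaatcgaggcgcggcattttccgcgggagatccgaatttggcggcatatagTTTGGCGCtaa
E2f3 chr13:29986014-29986313 (- strand): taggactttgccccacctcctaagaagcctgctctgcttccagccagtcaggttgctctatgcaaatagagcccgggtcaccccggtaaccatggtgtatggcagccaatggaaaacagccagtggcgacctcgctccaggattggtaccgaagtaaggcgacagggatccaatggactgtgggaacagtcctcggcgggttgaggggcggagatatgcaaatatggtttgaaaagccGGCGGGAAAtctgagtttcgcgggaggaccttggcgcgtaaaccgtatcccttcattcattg
E2f7 chr10:110745189-110745488 (+ strand): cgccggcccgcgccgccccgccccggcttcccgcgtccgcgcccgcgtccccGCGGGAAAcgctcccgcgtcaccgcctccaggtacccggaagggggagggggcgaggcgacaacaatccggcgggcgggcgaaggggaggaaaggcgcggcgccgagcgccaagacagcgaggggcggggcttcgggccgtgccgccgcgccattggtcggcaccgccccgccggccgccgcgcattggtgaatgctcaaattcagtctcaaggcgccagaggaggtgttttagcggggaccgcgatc
Rbl1 chr2:157204485-157204784 (- strand): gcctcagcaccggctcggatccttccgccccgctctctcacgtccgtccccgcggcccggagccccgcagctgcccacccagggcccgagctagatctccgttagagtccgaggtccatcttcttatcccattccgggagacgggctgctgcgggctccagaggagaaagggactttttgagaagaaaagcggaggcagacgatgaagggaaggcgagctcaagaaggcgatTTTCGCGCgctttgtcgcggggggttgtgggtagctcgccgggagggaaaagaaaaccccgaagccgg
E2f8 chr7:48881547-48881846 (- strand): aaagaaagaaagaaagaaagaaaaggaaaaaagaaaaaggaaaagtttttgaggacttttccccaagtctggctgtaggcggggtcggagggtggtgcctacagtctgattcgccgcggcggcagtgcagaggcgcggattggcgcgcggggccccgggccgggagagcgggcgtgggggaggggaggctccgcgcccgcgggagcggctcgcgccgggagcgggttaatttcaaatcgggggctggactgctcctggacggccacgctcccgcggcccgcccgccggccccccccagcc

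The match in Rbl1 began at base -18 counted from the gene start, that in E2f7 at -198 and that in E2f2 at 40, inside the transcribed part. In E2f3 both patterns matched the same stretch, from -12 for the core and -11 for the consensus. The consensus occurred in 2.26% of all 32851 windows of that table. Counted by gene, the consensus or the core stood in 7.98% of tested genes with a window. The windows of Rbl2 and E2f8, and the second window of E2f3, held neither pattern, which says only that these letters are not there. The window of E2f1 and the second of E2f2 held neither too, but both begin within protein-coding sequence of the gene. They thus lie at internal starts, and the E2f1 promoter before its coding sequence was not searched. The E2f8 window had TTTGAA on the opposite strand from -20. That pattern, called the cell cycle homology region (CHR), stood in 17.9% of windows and also in those of E2f3 and Rbl2 and the second of E2f2. E2F matches were thus present in E2f2, E2f7 and Rbl1, which fell, and in E2f3, which did not pass. They were not seen in E2f8 and Rbl2, which fell, nor in the internal window of E2f1, which fell too.

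Among the activators, E2f1 (ENSMUSG00000027490), which drives entry into S phase and can also promote apoptosis, was measured at 3931, 4146 and 4349.5 normalized counts with control medium and at 2558, 2431 and 2584 with ferroptotic medium. Every library with ferroptotic medium lay below every control. The mean went from 4142 ± 209 to 2524 ± 81.8 (SD, n = 3 per group; log2 difference -0.71, SE 0.051; limma adjusted p = 7.87e-06). On the scale of log2(normalized count + 1), 9.31% of tested genes had a difference as low or lower. E2f2 (ENSMUSG00000018983), an activator known for its role in blood cell proliferation, was measured at 2002, 1894 and 2009.8 normalized counts with control medium and at 1314, 1388 and 1267 with ferroptotic medium. The groups were again separate, with the mean at 67.2% of the control level (log2 difference -0.57, SE 0.058; limma adjusted p = 6.56e-05).

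E2f3 (ENSMUSG00000016477), an activator that is also made as a shorter isoform from an internal promoter, was measured at 906, 2100.0 and 2170.4 normalized counts with control medium and at 1795, 1915 and 2006 with ferroptotic medium. Control replicate 1 was low, and the other 5 libraries lay between 1795 and 2170.4. The log2 difference was 0.25 with a 95% interval of -0.79 to 1.28 (limma adjusted p = 0.671). Without control replicate 1 it turned to -0.17 and still did not pass (limma adjusted p = 0.0908). Of 9012 tested genes with a mean of at least 500 normalized counts, 27 lay at least 1 log2 unit below both other controls in control replicate 1. In each of the other 5 libraries, 15 to 25 genes did so against their own group.

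The repressors that act with pocket proteins had log2 differences nearer to 0 than those of E2f1 and E2f2. E2f4 (ENSMUSG00000014859), which carries no nuclear localization signal of its own and enters the nucleus with partners, was measured at 5874, 5848 and 6022 normalized counts with control medium and at 5034, 4879.7 and 4936 with ferroptotic medium. The libraries within a group were close, and the fall to 83.7% of the control mean passed (log2 difference -0.26, SE 0.035; limma adjusted p = 0.000376). E2f5 (ENSMUSG00000027552), its nearest relative, was measured at 801, 851 and 783 normalized counts with control medium and at 590.2, 677 and 676 with ferroptotic medium. Its groups did not overlap either (log2 difference -0.33, SE 0.083; limma adjusted p = 0.0119). In GENCODE M21 the gene model of E2f5 overlaps, on the other strand, that of 1810022K09Rik, which rose (0.41). The labels do not say whether reads were counted by strand, so reads from such partners may be mixed. E2f6, a repressor of the Polycomb type that was not among the chosen members, was chosen after its values were seen. It had 724 ± 84.6 and 537 ± 57.4 normalized counts, a log2 difference of -0.43 (limma adjusted p = 0.0144), which without control replicate 3 was -0.34 (0.0501).

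The atypical repressors had the lowest log2 differences of the family. E2f8 (ENSMUSG00000046179), which with E2F7 turns down E2F targets late in S phase, was measured at 3704, 3706 and 3548 normalized counts with control medium and at 1110.2, 1289 and 1146 with ferroptotic medium. Its level with ferroptotic medium was 32.4% of the control mean (log2 difference -1.63, SE 0.064; limma adjusted p = 2.41e-07), and 1.51% of tested genes had a difference as low or lower. E2f7 (ENSMUSG00000020185), its partner in that role, was measured at 862, 829 and 821 normalized counts with control medium and at 404, 363 and 367 with ferroptotic medium. The mean with ferroptotic medium was 45.1% of the control mean (log2 difference -1.15, SE 0.080; limma adjusted p = 6.97e-06). In the authors' deposited table of changed genes, E2f8 had FPKM values of 14.2, 14.2 and 13.5 with control medium and 4.20, 4.89 and 4.27 with ferroptotic medium. In the same authors' deposited table E2f7 was lower per length, at 1.99, 1.91 and 1.88 FPKM in controls and 0.92, 0.83 and 0.82 with ferroptotic medium.

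Of the 3 pocket protein genes, Rbl1 and Rbl2 fell and Rb1 did not pass. Rbl1 (ENSMUSG00000027641), which encodes p107, a pocket protein most abundant in cycling cells, was measured at 4926, 5002 and 4829 normalized counts with control medium and at 2295, 2509.9 and 2273 with ferroptotic medium. The groups did not overlap, and the mean fell to 48.0% of the control level (log2 difference -1.06, SE 0.049; limma adjusted p = 5.92e-07). Rbl2 (ENSMUSG00000031666), which encodes p130, the pocket protein most abundant in resting cells, was measured at 1497, 1477 and 1652 normalized counts with control medium and at 1192, 1228 and 1232 with ferroptotic medium. It fell to 78.9% of the control mean (log2 difference -0.34, SE 0.063; limma adjusted p = 0.00236). Rb1 (ENSMUSG00000022105), the retinoblastoma tumour suppressor gene, was measured at 1537, 1455 and 1575 normalized counts with control medium and at 1324, 1600.3 and 1776 with ferroptotic medium. Its groups overlapped and both the lowest and the highest value came from ferroptotic-medium libraries. The log2 difference of Rb1 was 0.032 with a 95% interval of -0.20 to 0.27 (limma adjusted p = 0.835). Gene models on the other strand overlap these genes too: Rcbtb2, which overlaps Rb1, had a log2 difference of -0.60 and Aktip, which overlaps Rbl2, of 0.45 (limma adjusted p = 0.00252 and 0.00386). Other overlapping genes did not pass. They were Lpar6 at Rb1 (0.11), Gm14277 at Rbl1 (-0.51) and Gm2788 at E2f8 (-0.83), with limma adjusted p = 0.349, 0.197 and 0.0626.

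**Figure D2:**
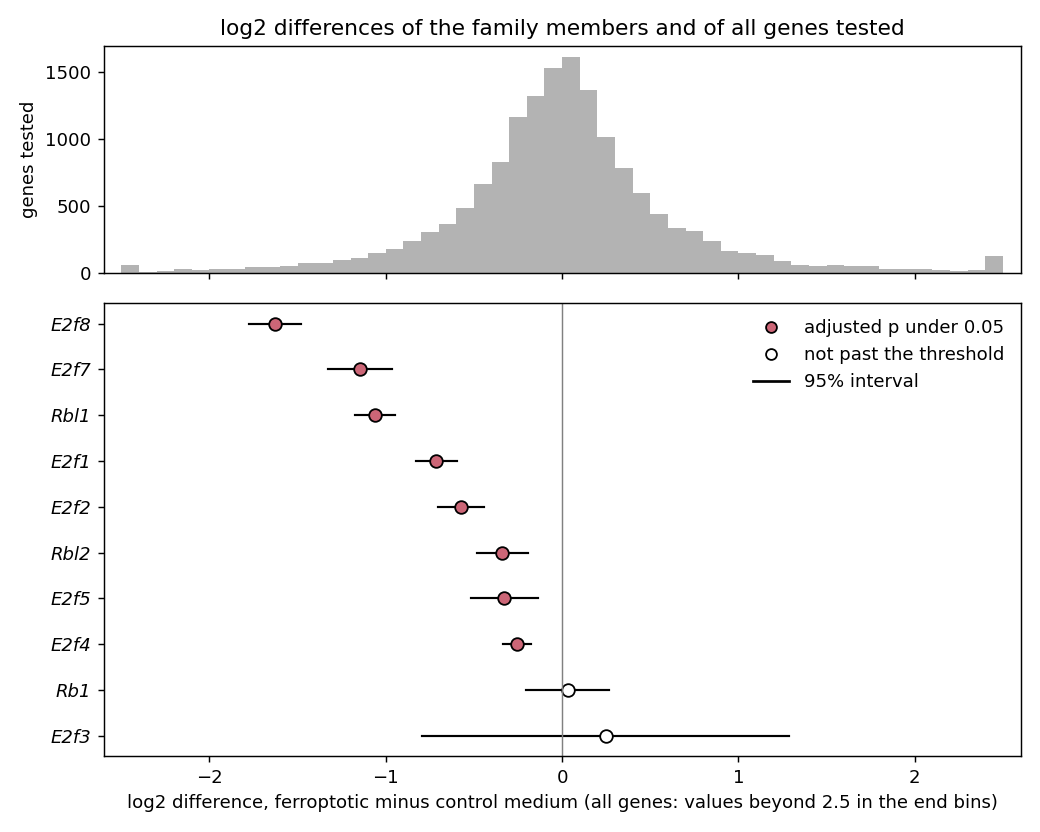
Log2 differences (ferroptotic minus control medium, log2(normalized count + 1) scale). The upper panel counts all 15597 tested genes per bin, and the lower panel gives each member with its 95% interval, filled where the adjusted p is below 0.05. E2f8, E2f7 and Rbl1 lie below -1, and the intervals of Rb1 and E2f3 span 0.

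To compare levels between genes, reads were divided by exon length in GENCODE M21 and by library total (RPKM). In control libraries E2f4 was highest at 56.6 ± 0.60, followed by E2f1 (30.8 ± 1.42), Rbl1 (19.2 ± 0.43) and E2f8 (15.7 ± 0.47). E2f5 (10.7), E2f2 (9.45), E2f3 (7.45), Rb1 (5.93), Rbl2 (4.78) and E2f7 (2.18) came next. In that order E2f2 and E2f3 overlapped, as did E2f3 and Rb1. The first 3 places were held by the same genes with ferroptotic medium, at 46.7, 18.5 and 9.11, while E2f8 went from place 4 to place 8, at 5.02 ± 0.43. There the neighbours Rbl1 and E2f5, E2f5 and E2f3, E2f2 and Rb1, and Rb1 and E2f8 overlapped, with Rb1 at 6.02 ± 0.81. These levels assume that all annotated exons are used, and in controls they lie above the authors' deposited FPKM for E2f8, E2f7 and Rbl1, the 3 members that have one.

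Differences between 2 members within a library hardly depend on the scaling factor of that library, and 8 pairs were compared by exact two-sided permutation over the 3 and 3 libraries, which cannot give a p below 0.1. The log2 difference Rbl1 minus Rb1 went from 1.69 ± 0.083 to 0.60 ± 0.22 (SD, n = 3 per group; exact permutation p = 0.1), a change of -1.09. The difference Rbl1 minus Rbl2 changed by -0.72, E2f1 minus Rb1 by -0.75 and E2f1 minus E2f4 by -0.46. Between E2f8 and E2f1 the change was -0.92, and E2f7 minus E2f8 went up by 0.48. In these 6 pairs and in E2f2 minus E2f3 (-0.82) the groups did not overlap and the exact permutation p was 0.1, or 0.114 adjusted over the 8 pairs, so none passed. Without control replicate 1 the change of E2f2 minus E2f3 was -0.40 and that of E2f3 minus E2f4 was 0.10, from 0.50 with all libraries (exact permutation p = 0.3).

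**Figure D3:**
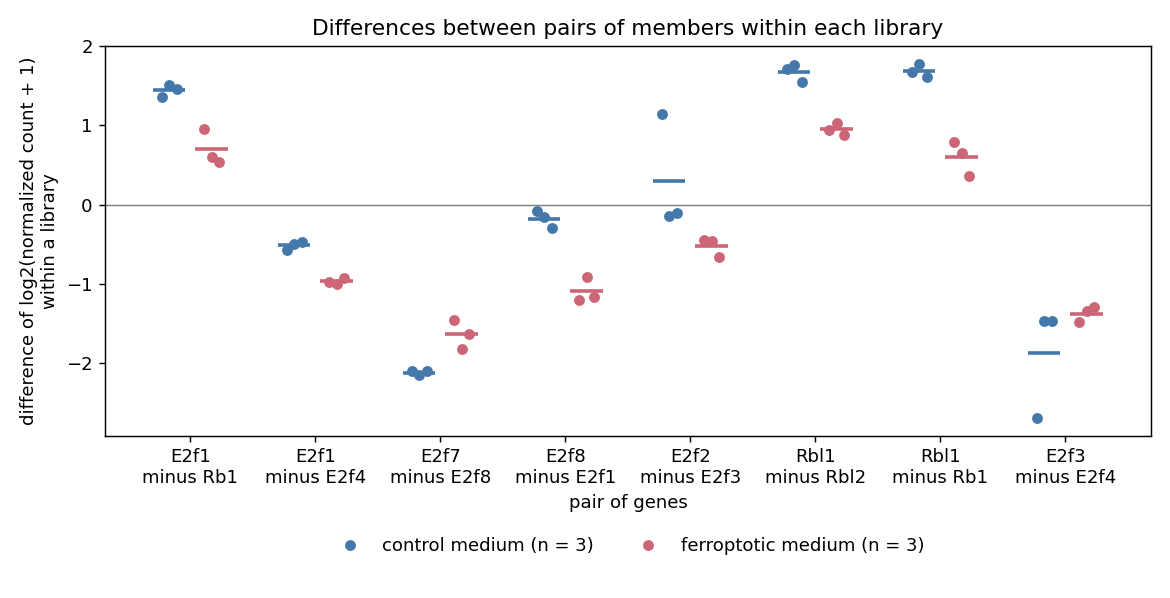
Difference in log2(normalized count + 1) between the 2 genes of each pair within a library, with points for libraries (n = 3 per medium) and lines for means. Rbl1 minus Rb1 drops from a mean of 1.69 to 0.60, and the E2f3 pairs each hold 1 control library that lies apart.

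Genes that work with the family, for which log2 differences stand in parentheses, were read from 11 lists drawn up with earlier results of these data known, so their counts are not independent evidence of a direction. Together they held 119 tested genes, of which 98 fell and 6 rose, with a median log2 difference of -0.97. Over all tested genes 22.8% fell and 19.7% rose, with a median of -0.005, and the counts of each list below are read beside those shares. Both DP subunits, which pair with E2Fs to bind DNA, fell: Tfdp1 from 9265 ± 241 to 5957 ± 295 normalized counts (-0.64, SE 0.044) and Tfdp2 from 466 ± 7.92 to 282 ± 12.3 (-0.72, SE 0.088; limma adjusted p = 0.000216 or less for both). Of the 8 genes of the MuvB core and its partners, which form the DREAM repressor with p107 or p130 and later an activator with B-MYB and FOXM1, 5 fell and 0 rose (median -0.58). Mybl2, which encodes B-MYB, fell from 5750.3 ± 119.7 to 1623 ± 48.8 (-1.82, SE 0.043), and Mybl1 (-0.83, SE 0.12), Lin9 (-0.73, SE 0.14) and Rbbp4 (-0.24, SE 0.030) fell too. Foxm1 was measured at 6759.5, 4887 and 3109 normalized counts with control medium and at 1988, 1835 and 2185 with ferroptotic medium (log2 difference -1.23, SE 0.31; limma adjusted p = 0.0343), and its call was lost in 7 of 12 alternatives (limma adjusted p up to 0.106). The MuvB subunits Lin54 (-0.42), Lin52 (-0.036) and Lin37 (0.016) did not pass, though Lin54 did in 3 of the 12 alternatives.

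Upstream of the pocket proteins, 7 of 10 tested G1 and S phase cyclins, their kinases and the activating phosphatase fell and 1 rose (median -0.57). Ccna2, which encodes the S phase cyclin A2, was measured at 8465, 8271 and 8088 normalized counts with control medium and at 2198, 2229 and 2409 with ferroptotic medium (-1.86, SE 0.046). Ccnd1, the D-type cyclin gene with the highest counts of the 3, fell from 38323 ± 485 to 19854 ± 332 normalized counts (-0.95, SE 0.026). The cyclin E genes Ccne1 (-0.68, SE 0.051) and Ccne2 (-1.03, SE 0.087) fell as well. In the other direction, Ccnd2 was measured at 4462, 4398 and 4884 normalized counts with control medium and at 6608, 6688 and 6318 with ferroptotic medium, a rise with no overlap between groups (log2 difference 0.51, SE 0.049; limma adjusted p = 4.58e-05). Cdk2 (-0.36) and Ccnd3 (0.32) did not pass. Without control replicate 1, which held 5410.0 normalized counts of Ccnd3 beside 1852 and 1853 in the other controls, Ccnd3 rose (0.84; limma adjusted p = 0.0207).

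Of the CDK inhibitors, 4 of 7 listed genes were tested. Cdkn1a, which encodes the p53-induced inhibitor p21, was measured at 12479, 12653 and 12369 normalized counts with control medium and at 17757, 17912 and 17604 with ferroptotic medium. All libraries with ferroptotic medium lay above the controls (log2 difference 0.51, SE 0.027; limma adjusted p = 1.29e-06). Cdkn2c, which encodes the CDK4 and CDK6 inhibitor p18, fell from 969.8 ± 190.2 to 465 ± 66.6 normalized counts (-1.05, SE 0.16; limma adjusted p = 0.00148). Cdkn1b, the p27 gene, had a log2 difference of 0.21 and Cdkn2d, the p19 INK4 gene, of -0.29, and neither passed.

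Chromatin partners of pocket proteins and E2Fs were mixed, with 7 of 11 lower and 2 higher (median -0.40). The maintenance DNA methyltransferase gene Dnmt1 fell from 24159 ± 756 to 10942 ± 325 normalized counts (-1.14, SE 0.035), and the histone methyltransferase genes Suv39h1 (-1.14, SE 0.057) and Ezh2 (-0.73, SE 0.075) and the scaffold gene Sin3a (-0.41, SE 0.046) fell. The histone demethylase gene Kdm5a rose (0.29, SE 0.040). Sin3b rose by less (0.14, SE 0.043; limma adjusted p = 0.0268) and lost its call without control replicate 1 or 2 or ferroptotic replicate 2 or 3 (limma adjusted p up to 0.0938). Hdac1 (-0.084) and Arid4b (0.10) did not pass. Of 6 genes listed as parts or regulators of ubiquitin ligases that act on E2Fs or on p27, 5 fell and 0 rose. They were Ccnf, which encodes the cyclin F that targets several E2Fs, from 3890.4 ± 73.0 to 1061 ± 79.9 (-1.88, SE 0.062), the APC/C inhibitor gene Fbxo5 (-1.46, SE 0.092), Cks1b (-1.09, SE 0.051), Skp2 (-0.51, SE 0.10) and Fzr1 (-0.49, SE 0.062). Cul1 (-0.093) did not pass.

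Known E2F targets of the G1/S transition fell almost throughout. All 17 genes of replication licensing and origin firing fell (median -0.99), with log2 differences from -1.88 to -0.76. The helicase subunit gene Mcm7 was measured at 8684, 8749.8 and 8755 normalized counts with control medium and at 3747, 3768 and 3861 with ferroptotic medium, and Mcm6 (-1.35, SE 0.038), Mcm2 (-0.99, SE 0.036) and Mcm4 (-0.98, SE 0.036) fell with it. Of 21 genes of DNA synthesis and nucleotide supply, 20 fell and 0 rose (median -1.04), including the polymerase epsilon gene Pole (-1.27, SE 0.038), the ribonucleotide reductase subunit genes Rrm1 (-1.34, SE 0.042) and Rrm2 (-1.55, SE 0.035) and the methylation reader gene Uhrf1 (-1.32, SE 0.036). Fen1, the flap endonuclease gene, did not pass (-0.68): control replicate 3 held 2251 normalized counts beside 5604 and 5792 in the other controls, and without it Fen1 fell (-1.12; limma adjusted p = 2.75e-06). All 12 checkpoint and repair genes fell (median -0.98), led by the kinase gene Wee1 (-1.75, SE 0.071), the recombination gene Rad54l (-1.51, SE 0.043) and the checkpoint adaptor gene Clspn (-1.46, SE 0.046). The helicase gene Blm (-0.87, SE 0.046) fell by less.

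Late cell cycle genes, which MuvB with B-MYB and FOXM1 activates, had the lowest list median, -1.68. All 20 fell at least 2-fold, with log2 differences from -2.11 to -1.22. The topoisomerase gene Top2a was measured at 28568, 28019 and 28977 normalized counts with control medium and at 9493, 9956 and 10405 with ferroptotic medium (-1.52, SE 0.038). The mitotic kinase gene Plk1 (-2.11, SE 0.052), the APC/C ubiquitin-conjugating enzyme gene Ube2c (-1.93, SE 0.044) and the kinesin gene Kif23 (-1.81, SE 0.045) fell as well. Among the 8 tested genes named as apoptosis and growth targets of E2F1, 2 fell and 2 rose (median 0.084), shares near the 22.8% and 19.7% over all tested genes. The BH3-only death genes Bcl2l11, which encodes BIM (from 1722 ± 43.1 to 3492 ± 698 normalized counts; 1.00, SE 0.14), and Bbc3, which encodes PUMA (0.65, SE 0.065), rose. Apaf1 (-0.01), Myc (0.18), Mycn (-0.28) and Pmaip1 (0.28) did not pass. Without ferroptotic replicate 1 Pmaip1 rose (0.81; limma adjusted p = 0.000352).

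**Figure D4:**
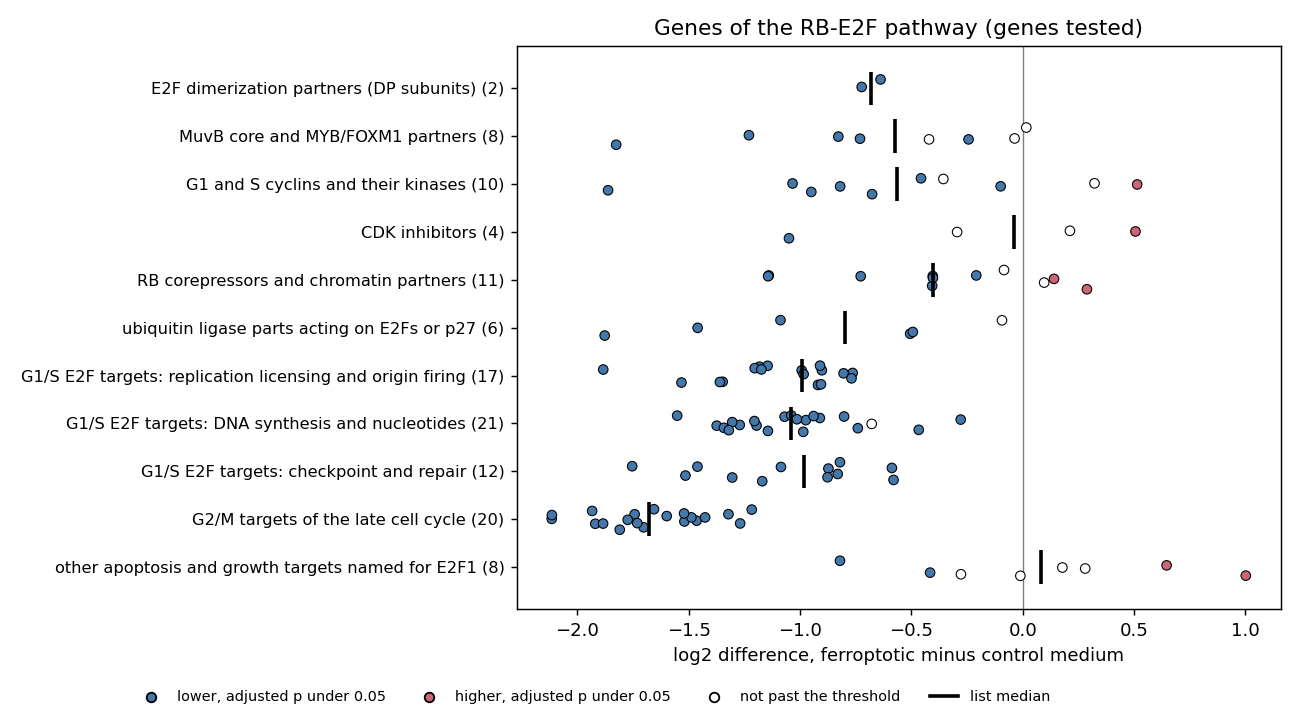
Log2 differences (ferroptotic minus control medium) of the tested genes of each list, 1 point per gene, filled blue (lower) or red (higher) where the adjusted p is below 0.05 and open otherwise, with the list median as a bar. All points of the late cell cycle list lie below -1, and filled points on both sides of 0 occur among cyclins, CDK inhibitors, chromatin partners and apoptosis genes.

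The promoter patterns were also counted over genes. Of the tested genes, 9874 had a RefSeq window, and the E2F consensus stood in 4.61% of these. It stood in 17 of 39 genes of the 3 G1/S lists (43.6%) and in 1 of 16 late cell cycle genes (6.25%). TTTGAA showed the opposite, with 6 of 39 (15.4%) and 11 of 16 (68.8%), beside 15% of tested genes. Among genes with a window, the consensus was present in 192 of 2633 called lower (7.29%) and 63 of 2208 called higher (2.85%). These shares describe letters in fixed windows and were given no test.

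Among all tested genes, the 5 whose log2 values over the 6 libraries were most like those of E2f1 were Uba2, Rufy1, Noc2l, Pde4a and Tcf19 (Pearson r of at least 0.999). An r of at least 0.99 with E2f1 was reached by 373 genes. For Rb1, whose groups overlapped, the 5 were Rnf139, Tlr1, Hps3, Tmem161b and Ppp3r1 (r from 0.984 to 0.993), and 2 genes reached 0.99. Both sets share the libraries and their scaling. The difference between the media was not removed before r was taken. For E2f1, whose groups were separate, a gene with a like fall can thus reach a high r.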

How the data were processed

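RNA sequencing libraries of 6 samples were prepared with a Vazyme mRNA kit for Illumina sequencing, per the labels' protocols. The submitters' processing notes name R 3.4.3, DESeq2 1.18.1, HISAT2 2.1.0 and fastp 0.17.1. The counting tool, the genome build and the strand setting are not stated there. The authors deposited log2 values per library. These behave as log2(normalized count + 1), since 100% of the values, with the log undone, are whole multiples (tolerance 0.01) of 1 step per library. The reads worked out from the steps may be rounded estimates. The p-values the authors deposited were not used, and FPKM values, deposited by the authors for 1699 genes, cover 3 members.

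The log2 values were tested with limma 3.58.1 (trend and robust, R 4.3.3), medium being the sole term, in 15597 genes that reached 10 normalized counts in 3 or more libraries. The same code was checked on simulated data. Exact permutation tests used SciPy 1.17.1. The members and lists were chosen with earlier results of these data known. Genes with overlapping models, E2f6, macrophage markers beside Lyz2, and Aldh1l1, Mag and Cldn11 were added after their values were seen. Otherwise the rule was to name all members, up to 4 genes of each list by smallest p and the genes in counts of 5 or fewer. It also covered the 5 genes most like E2f1 and Rb1, and the highest and very low markers. Some genes that this rule names are not reported here. Replicates differed by more than sampling noise (chi-square per degree of freedom 16.3 to 22.8). GENCODE M21 holds 26051 of the 26096 gene IDs. Alternatives were a minimum of 1 normalized count, no filter, quantile normalization, a pseudocount of 5, limma-voom on whole reads, a replicate block and leaving out each library.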

Additional observations from a re-analysis of the deposited data

How the results depend on the processing

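The count of members that fell was 8, and that of members that rose 0, under all 12 alternatives, and no single member gained or lost its call. Log2 differences ranged from -1.69 to -1.57 for E2f8, -1.20 to -1.12 for E2f7, -1.11 to -1.01 for Rbl1, -0.75 to -0.66 for E2f1 and -0.61 to -0.52 for E2f2. E2f5 had the highest adjusted p of the members that fell, 0.0464 without control replicate 2. Leaving out 1 library moved E2f3 between -0.17 and 0.46 and Rb1 between -0.064 and 0.15, including -0.00023 without control replicate 2. The cause was not tested. The list genes fell in 96 to 99 cases and rose in 5 to 7. Values near 0 changed sign for Apaf1 (0.035 with quantile normalization, 0.0066 with limma-voom, and -0.028 to 0.014 leaving out 1 library), Lin37 (-0.039 to 0.092), Lin52 (-0.092 to 0.027) and Pmaip1 (-0.037 to 0.81, leaving out 1 library each). With the replicate block, 3312 genes fell and 2914 rose, against 3552 and 3077 without it, 8 members fell, and Lin54 passed (-0.42; limma adjusted p = 0.0131) while Foxm1 did not (-1.23; 0.0814). Same-numbered libraries did not deviate together (correlations 0.009, -0.020 and -0.039 across genes), and 0 of 3 control libraries correlated best with their own number. With 331 reads or more behind every member value, none was near the filter. Fits without a library leave 2 against 3.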
